A study of Mus musculus with 96 samples.

Results

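The microRNA hairpin mir-126a was followed across the livers of Huntington's disease knock-in mice. It was taken as the row MI0000153 of the deposited count table, 1 of 1187 hairpins, and its level is given as CPM, its count scaled by the summed counts of the library. The livers of 96 C57BL/6 mice, in 24 groups of 4, gave 1 small RNA library each. The Q20, Q50, Q92 and Q140 mice were heterozygous, with 1 wild-type mouse Htt allele and 1 Htt allele that carries a human HTT exon 1 with 20, 50, 92 or 140 CAG repeats. Wild-type (WT) mice were taken from both the Q20 and the Q50 line, and each of these 6 kinds of mouse was sampled at 6 and at 10 months of age, with 4 females and 4 males. The altered allele was present in the germline and so in every cell type of the liver, and the knock-in mice of 1 repeat length all came from 1 line. As in the study's methods, WT of both lines and Q20 served as controls.

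MicroRNAs are cut from a hairpin-shaped precursor, and the mature strand guides silencing complexes to messenger RNAs that pair with its seed, the bases near its 5′ end. The hairpin of mir-126a lies inside Egfl7, a gene for a secreted protein of blood vessel cells, and mir-126a is known as the microRNA of endothelial cells, where it supports growth factor signalling and the integrity of vessels in mice and zebrafish. Whole liver holds endothelial cells of the sinusoids and larger vessels beside hepatocytes, so in these bulk libraries fewer endothelial cells and less of the microRNA per cell cannot be told apart. Hepatocyte and endothelial marker hairpins could not be looked up, because none of the table's hairpin IDs was matched to a name in the reference tables, and the labelled tissue was therefore not checked against markers.

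The sequences show a mature strand that the row can hold and what overlaps it. For Mir126a only miR-126a-3p is listed. The row may also hold reads of the other arm of the hairpin, for which no mature strand is listed here. They are RefSeq sequences on GRCm38.p6 (mm10), written 5′ to 3′, with the seed (bases 2 to 8) in capitals in the mature strands and the mature miR-126a-3p in capitals in the hairpin.
mmu-miR-126a-3p, chr2:26591402-26591423, plus strand: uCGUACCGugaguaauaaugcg
Mir126a hairpin, chr2:26591357-26591429, plus strand: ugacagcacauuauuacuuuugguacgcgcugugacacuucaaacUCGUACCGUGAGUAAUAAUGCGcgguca
mmu-miR-126b-3p, chr2:26591363-26591385, minus strand: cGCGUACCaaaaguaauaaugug
mmu-miR-126b-5p, chr2:26591399-26591420, minus strand: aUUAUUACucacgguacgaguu
Of 1738 mature mouse sequences in the RefSeq table, 1 had the seed of miR-126a-3p, which was miR-126a-3p itself. The hairpin has 73 nucleotides (nt), the length that the deposited FPKM and counts give for MI0000153 (24 hairpins of the table had this length). Egfl7 spans chr2:26580014-26593120 on the plus strand in GENCODE M21. Of its 9 transcripts that span the hairpin, 8 carry it in an intron, among them all 7 that code for protein, and a retained-intron transcript carries it in an exon. Mir126b, with 58 nt on the minus strand, is the reverse complement of part of Mir126a over all 58 of them. The libraries were strand-specific by the study's methods, but no source used here gives the strand setting of the counting. Whether the row holds reads of the antisense hairpin was not tested, and the row does not separate the strands cut from the hairpin. Among the 40 hairpins highest per nucleotide, 1 had a length of 58 nt, MI0025035, which no source used here pairs with a name and which is given after its values were seen. It had a mean of 4338 CPM with a CV within groups of 72.8% (median), and its deviations from the group means correlated with those of mir-126a by -0.31 over the 92 libraries and -0.15 without the 10 that stand apart in another hairpin.

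mir-126a was among the most abundant hairpins in every liver. It held 1.89% of all counts, with 25793 to 152433 estimated counts per library out of totals of 2195052 to 6662671. Its mean was 18798 ± 3037 CPM (SD, n = 96), and it ranked 9th to 21st among the hairpins within single libraries. Per nucleotide of hairpin it was 11th with 258 CPM per nt. The hairpins just above it on this scale were MI0000257 with 331 CPM per nt and MI0000142 with 323, and those just below were MI0000719 with 216 and MI0000563 with 207. Its counts were not whole numbers in 95 of 96 libraries, as was so for 248 hairpins of the table. The origin of these fractions was not tested and leaves the level less certain than its counting error.

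Before the levels are compared, 10 libraries have to be named that stand apart. In these the hairpin MI0000562 (89 nt) lay between 54.3 and 120 CPM, while the other 86 libraries held 341 to 620.5 CPM of it, with none between. Each of the 10 came from a different group, and in 9 of them mir-126a was the lowest of its group. The 10 are Q20 male 6 months replicate 3, Q50 female 6 months replicate 1, Q92 male 6 months replicate 2, Q140 male 6 months replicate 2, WT of the Q50 line female 6 months replicate 3, WT of the Q50 line female 10 months replicate 4, WT of the Q50 line male 10 months replicate 4, Q50 female 10 months replicate 4, Q50 male 10 months replicate 2 and Q92 male 10 months replicate 2. They fell on all 4 lane tags (L5 1, L6 5, L7 2, L8 2), in 4 females and 6 males, and on every genotype but WT of the Q20 line. The lane tag is the L5 to L8 of the column labels, and reading it as a lane is an inference that no label states. The tags were of unlike size. At 6 months L6 held 18 libraries, L7 27 and L8 3, and at 10 months L5 held 13, L6 26, L7 8 and L8 1. Among the 10 libraries lowest in mir-126a, 7 belonged to them. In the connectivity check used by the study, which removes a library whose standardized similarity to the others (Z.k) is under -5, 1 of the 10 fell under the limit. Values without these libraries stand beside several of the results. The libraries were picked for another hairpin that follows mir-126a, and their part in the results was not tested beyond that.

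In WT mice of the Q20 line, the levels were close together. At 6 months the females had 18328, 19485, 20364 and 21012 CPM, with a mean of 19797 ± 1162 (SD, n = 4). The males had 16196, 16695, 16720.0 and 19213 CPM, with a mean of 17206 ± 1359. At 10 months the females had 18782, 21260.1, 21328 and 21650.5 CPM (mean 20755 ± 1326), 1 mouse below 3 that lay close to each other. The males of that age had 17629, 20219, 20691 and 21050.1 CPM (mean 19897 ± 1550.2), so the sexes overlapped at both ages.

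WT mice of the Q50 line spread more widely. At 6 months the females had 8928, 15779, 16089.9 and 17463 CPM, with a mean of 14565 ± 3829, the lowest of the 24 groups. The males had 17626, 19539, 20061 and 20658 CPM (mean 19471 ± 1312), above all 4 females, which is the only group of males at 6 months that did not overlap the females of its genotype. At 10 months the females had 16969.9, 19425, 22328 and 23717 CPM (mean 20609.7 ± 3014). The males had 11424, 14181, 20188 and 20237 CPM (mean 16508 ± 4424), a pair of low mice and a pair of high ones. The lowest female at each age and the lowest male at 10 months are among the 10 libraries low in MI0000562.

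Q20 mice carry a repeat of a length usual in people and stood near the WT mice. Females at 6 months had 18329.6, 18931, 19931 and 20731 CPM, with a mean of 19480.5 ± 1063. Males at 6 months had 16047, 16622, 18659 and 18753 CPM, with a mean of 17520.2 ± 1389.9. The male at 16047 CPM is 1 of the 10 libraries low in MI0000562. The ranges of the sexes overlapped little at this age.
Females at 10 months had 21267, 21277, 22090.2 and 24178 CPM, and their mean of 22203 ± 1372 was the highest of the 24 groups. Males at 10 months had 17964, 18119, 18468 and 20086 CPM (mean 18659 ± 974), all below the lowest of the females.

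In Q50 mice, the females at 6 months had 14156, 18038, 18544 and 18969.5 CPM, with a mean of 17427 ± 2214. The males had 17066, 18374, 19103 and 19249 CPM, with a mean of 18448 ± 998. At 6 months the low female was 1 of the 10 libraries, and the sexes overlapped. At 10 months the females had 20007, 21500.1, 21606 and 23048 CPM (mean 21540.4 ± 1242). The males had 14948, 18057, 18234 and 19835 CPM (mean 17768 ± 2043), again without overlap and lower than the females. The male at 14948 CPM and the female at 21606 CPM are also among the 10 libraries.

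Q92 mice held the lowest single value. At 6 months the females had 12984, 16417, 20388 and 21064 CPM (mean 17713 ± 3761). The males had 6286, 17212, 19286 and 20613 CPM (mean 15849 ± 6527), so that 1 mouse lay far below the other 3. The value of 6286 CPM was the lowest of all 96 libraries and came from lane tag L8 and from 1 of the 10 libraries low in MI0000562. At 10 months the females had 17256, 20392, 20639.8 and 22851 CPM (mean 20285 ± 2302). The males had 11354, 17720.5, 18663 and 20383 CPM (mean 17030.1 ± 3941), and the lowest mouse of each sex was left out of the tests by the Z.k limit. The male at 11354 CPM is also 1 of those 10 libraries.

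Q140 mice, with the longest repeat, had no group at an end of the order. The females at 6 months had 16336, 18946, 19764 and 20689.6 CPM (mean 18934 ± 1873). The males had 13872, 15697, 15723 and 22010 CPM (mean 16826 ± 3563), with 1 mouse far above the other 3. The male at 13872 CPM is 1 of the 10 libraries low in MI0000562. At 10 months the females had 20325, 20820.0, 22879 and 23195 CPM (mean 21805 ± 1443). The males had 19219, 19351, 21966 and 22895 CPM (mean 20858 ± 1856), which overlapped the females over most of their range.

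**Figure D1:**
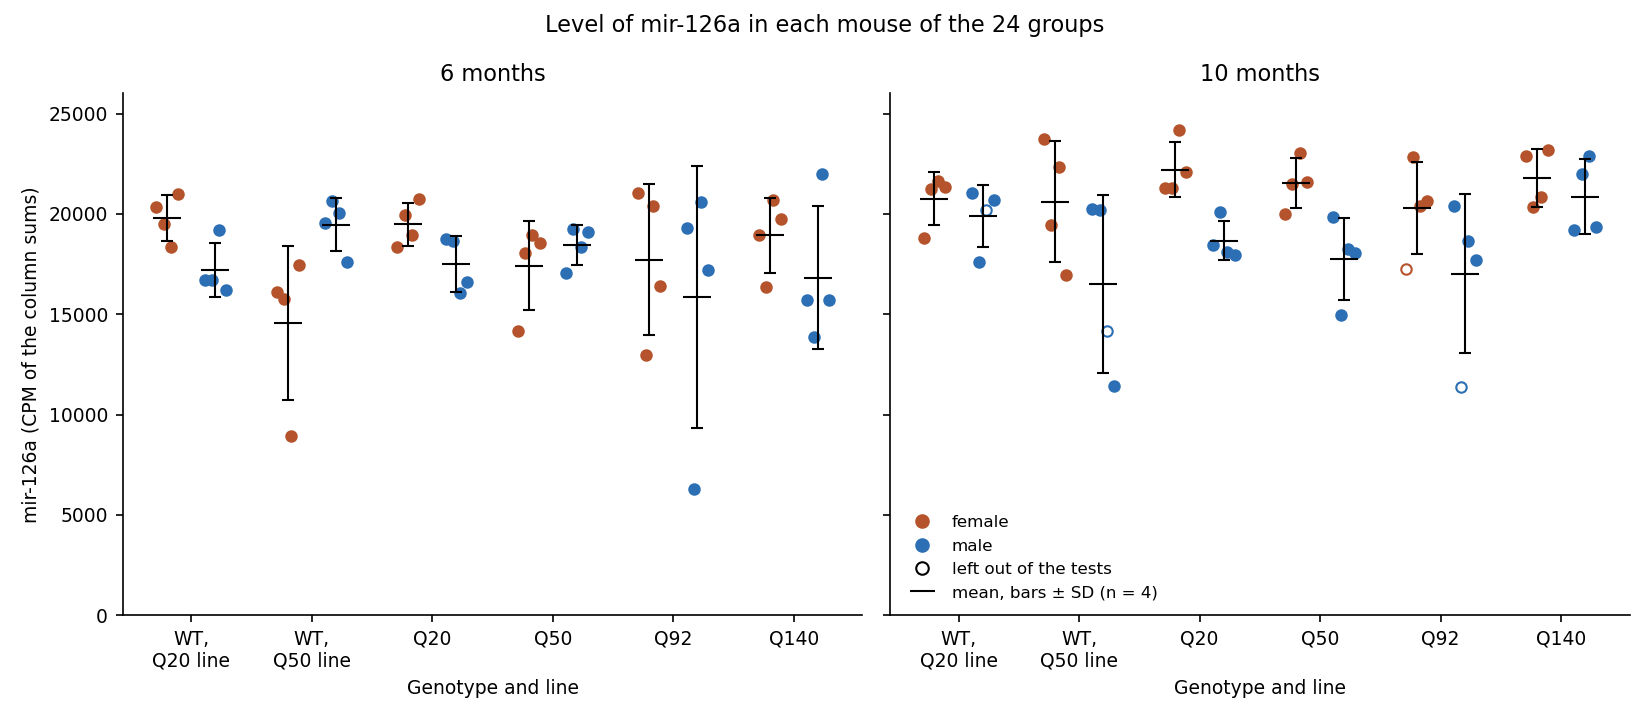
Level of mir-126a in CPM of the column sums (vertical axis, from 0) in each of the 4 mice of the 24 groups, by genotype and line (horizontal axis), sex (colour) and age (panel). Points are mice, open points are libraries left out of the tests, and black bars are the mean ± SD. The groups overlap over most of their range, and single low mice, down to 6286 CPM, widen a few of them.

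Over the order of the 24 group means, from 22203 CPM in Q20 females at 10 months to 14565 CPM in WT females of the Q50 line at 6 months, no neighbours were apart beyond their spread. In all 23 neighbouring pairs the difference was smaller than the larger SD of the pair. Small gaps between neighbours follow from sorting 24 means, so this does not show that the groups were alike. Q20 females and males at 10 months, with means of 22203 and 18659 CPM, did not overlap. On column sums over all 96 libraries, the first 8 places were taken by 10-month groups, all 6 female groups of that age among them. This order depended on the processing. On the TMM scale (trimmed mean of M-values) of the later tests, Q20 females at 6 months were 5th and Q92 females at 10 months 15th. Without the libraries under the Z.k limit, WT females of the Q20 line at 6 months were 8th. Within groups, the coefficient of variation (CV, the SD as a share of the mean) had a median of 8.42% and ran from 5.22% in Q20 males at 10 months to 41.2% in Q92 males at 6 months. Counting error alone would give 0.256% to 0.623%. The hairpins nearest in abundance, 10 above and 25 below mir-126a, had a median CV of 9.60%, and 25 of these 35 had a higher CV than mir-126a. Without the 10 libraries low in MI0000562, the median CV of mir-126a was 6.90%. In 9 of those 10 mir-126a was the lowest of its group, so a smaller CV follows from the choice. The CV of the neighbours was not taken without them.

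**Figure D2:**
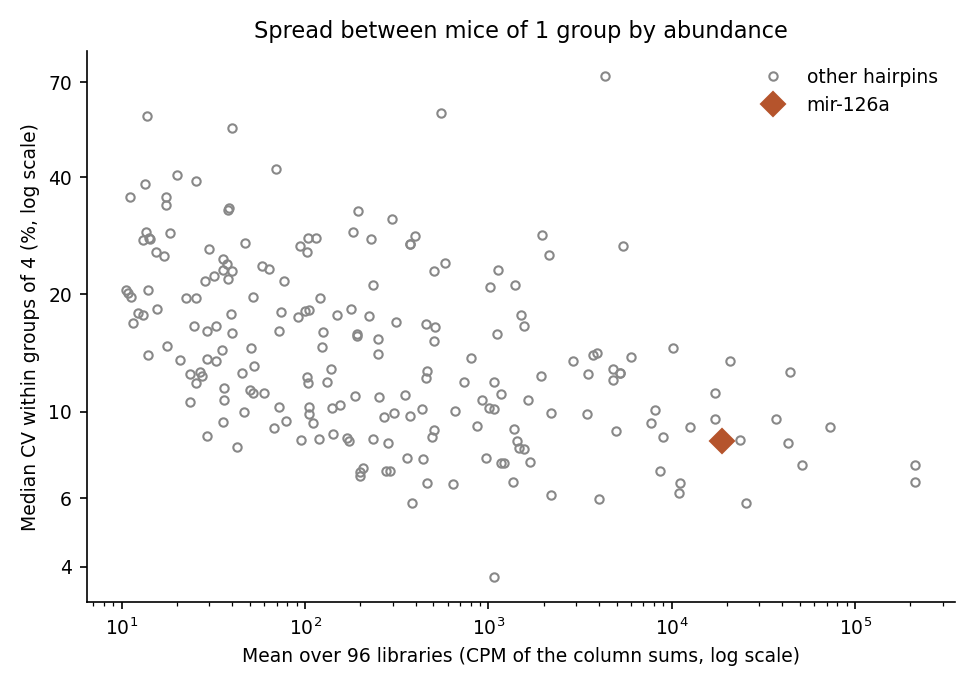
Median CV within groups of 4 mice in percent (vertical axis, log scale) against mean CPM over the 96 libraries (horizontal axis, log scale) for the hairpins with a mean of at least 10 CPM. Each point is a hairpin, and mir-126a (diamond) lies at 18798 CPM and 8.42%, below 25 of its 35 neighbours in abundance.

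The lane tags of the labels also moved with the level. At 6 months the 18 libraries of L6 had 16302 ± 2615 CPM, the 27 of L7 had 19333 ± 1336, and the 3 of L8 had 12503 ± 5577. At 10 months the means were 19666 ± 2192 in L5 (n = 13), 20203 ± 3103 in L6 (n = 26) and 19567 ± 1967 in L7 (n = 8), with 14181 in the single library of L8. The gap between L6 and L7 at 6 months was larger than either SD, and groups were not evenly spread over the tags: all 4 WT females of the Q50 line at 6 months, the lowest group, were on L6. The lane tag was a covariate in the tests within an age.

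**Figure D3:**
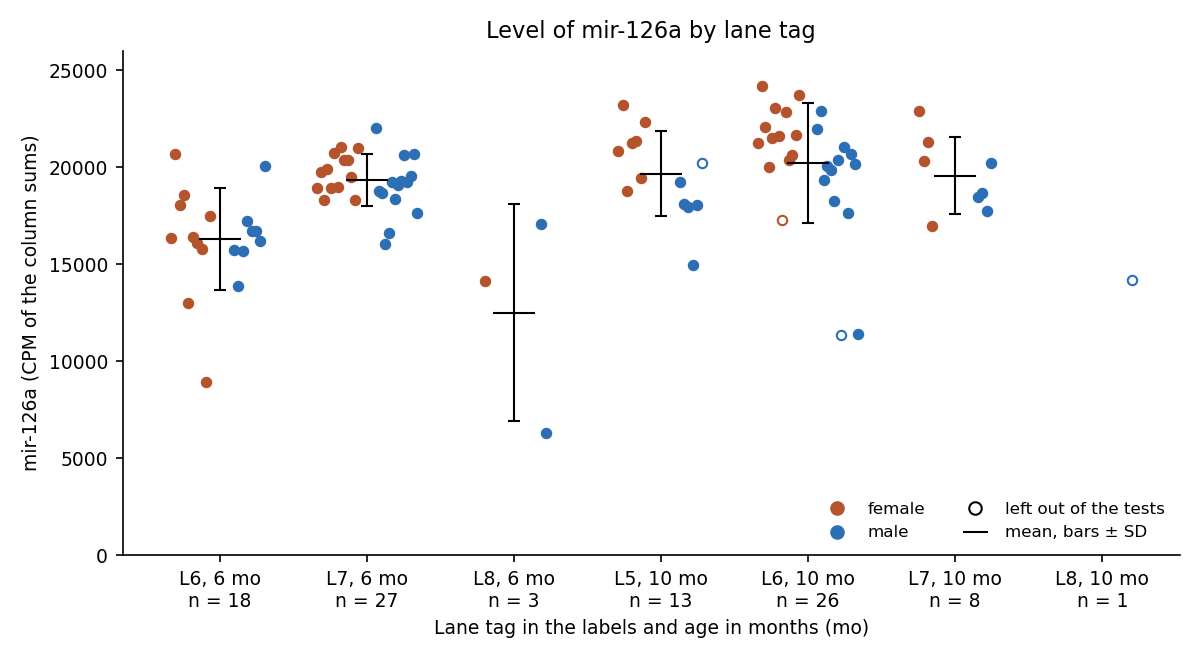
Level of mir-126a in CPM of the column sums (vertical axis, from 0) by the lane tag in the labels and age (horizontal axis), with females and males side by side. Points are mice, open points are libraries left out of the tests, and bars are the mean ± SD. At 6 months L6 (16302 CPM) lies below L7 (19333 CPM), while at 10 months L5, L6 and L7 lie together.

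Males had less mir-126a than females at 10 months. In the 44 libraries tested at that age, the lowest, the median and the highest level were 16969.9, 21328 and 24178 CPM in the 23 females and 11424, 19219 and 22895 CPM in the 21 males. The means were 21371 ± 1654 CPM in females and 18911 ± 2437 in males (SD), and 19 of 21 males were below the mean of the females, although the ranges overlapped. Over all 48 libraries of that age, the male mean was lower in 6 of 6 genotypes, and in Q20 and Q50 the sexes did not overlap. Among the libraries tested the Q92 mice did not overlap either, with males up to 20383 CPM and females from 20392 CPM.
The fitted log2 difference was -0.17 ± 0.04 (SE), a decrease of 10.9% (95% interval of the log2 difference -0.26 to -0.08), with an edgeR adjusted p of 0.0015 on counts scaled by TMM, the trimmed mean of M-values. Such a call was common, since 45.2% of the 383 hairpins tested differed between the sexes at this age and 23.2% were lower in males, and 58.2% had a larger difference in either direction than mir-126a. Left out in turn, no single library removed the call, with differences from -0.20 to -0.13. Without the 10 libraries low in MI0000562 the difference was -0.15 ± 0.03, with an edgeR adjusted p of 1.97e-05. Those libraries were picked after the data were seen, and in 9 of the 10 mir-126a was the lowest of its group. Leaving them out narrows the spread, so the smaller p is no added support.

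Within single lane tags the sex difference at 10 months was not past the threshold. It was -0.10 in L5 (edgeR adjusted p = 0.764) and -0.16 in L6 (0.162), and in the 8 libraries of L7 the fitted value had the other sign, 0.09 (0.816), with genotype in the model. The plain means were lower in males in all 3, with 17661 CPM (n = 5) against 21020 (n = 7) in L5, 19478 (n = 12) against 21912 (n = 12) in L6 and 18772 (n = 4) against 20363 (n = 4) in L7. Fewer libraries entered each of these fits.

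At 6 months no sex difference was found. The lowest, the median and the highest level were 8928, 18737 and 21064 CPM in 24 females and 6286, 17999.9 and 22010 CPM in 24 males, and the ranges nearly coincided. Males had the lower mean in 4 of 6 genotypes, and in WT of the Q50 line all 4 were above the females. The fitted log2 difference was -0.00023 ± 0.06, with an edgeR adjusted p of 0.997, where 38.2% of the 374 hairpins tested were called and 15.8% were lower in males. The 95% interval ran from -0.13 to 0.13. The change of the sex difference with age was -0.15 ± 0.09 (edgeR adjusted p = 0.476). No hairpin of 408 passed for this interaction with edgeR, and 53 had an unadjusted p under 0.05. A change of the sex difference between the ages was thus not shown.

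Whether mir-126a rose with age depended on the scaling. As CPM of the column sums it had 17770 ± 2964 CPM in the 48 mice at 6 months and 20197 ± 2389 in the 44 mice tested at 10 months, and 41 of 44 older mice were above the mean of the younger ones of their sex. Fitted on the column sums, the log2 difference was 0.18, with an edgeR adjusted p of 0.00125. With TMM, the planned scaling, it was 0.06 ± 0.04 with an edgeR adjusted p of 0.254, while 58.6% of the 408 hairpins tested were called and 31.6% were higher at 10 months. The median difference of all hairpins was 0.13 on the column sums and 0.01 with TMM, so relative to the other hairpins mir-126a differed by about the same small amount on both. In fits of 1 sex, added after the data were seen, the difference with TMM was 0.14 in females (edgeR adjusted p = 0.0217). In males it was -0.0047 (0.966), but as stated the interaction did not pass. The share of hairpins called in these fits and on the column sums is not given here, so their calls stand without a background. The ages share no mice, and whether a lane tag marks 1 run at both ages is not stated in the labels, so age and sequencing run cannot be told apart.

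No genotype comparison of mir-126a passed the threshold. The study set each expanded allele against the WT and Q20 controls to find microRNAs that follow the repeat. At 6 months the lowest, the median and the highest level of the 24 controls were 8928, 18494 and 21012 CPM. Those of the 8 Q50 mice were 14156, 18459 and 19249 CPM, those of the 8 Q92 mice 6286, 18249 and 21064, and those of the 8 Q140 mice 13872, 17641 and 22010. All 3 ranges lay over that of the controls.
Fitted at 6 months, the log2 difference from the controls was 0.17 ± 0.10 for Q50 (edgeR adjusted p = 0.998), -0.03 ± 0.09 for Q92 (0.974), and that for Q140 was 0.05 ± 0.09 (0.996). For Q50 and Q140 edgeR called 0 of 374 hairpins, with 7 and 5 below 0.05 before adjustment, and for Q92 it called 0.267%. The fitted value for Q50 against controls at 6 months is one with sex and lane tag in the model. The plain mean of Q50 on column sums, 17937 CPM, was slightly below the 18007 CPM of the controls, and without the lane tag the fitted value was 0.03. Without the 10 libraries low in MI0000562 the value for Q50 was 0.02, and that for Q92 turned to 0.01.

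The 22 controls tested at 10 months had a lowest, median and highest level of 11424, 20464 and 24178 CPM. The 8 Q50 mice had 14948, 19921 and 23048, the 6 Q92 mice 17720.5, 20388 and 22851, and the 8 Q140 mice 19219, 21393 and 23195. The Q140 mice lay in the upper part of the range of the controls. On column sums 6 of 8 were above the mean of same-sex controls, and on the TMM scale 5 of 8 were.
Fitted at 10 months, the log2 difference was -0.03 ± 0.06 for Q50 (edgeR adjusted p = 0.9996), -0.02 ± 0.07 for Q92 (0.937) and 0.07 ± 0.06 for Q140 (0.624). Among the 383 hairpins tested, 0 were called for Q50 with edgeR (9 at an unadjusted p under 0.05), 1.04% for Q92 and 1.31% for Q140. The interval for Q140 ran from -0.04 to 0.19, and without the 10 libraries its value was 0.02.

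With repeat length as a number, no slope passed the threshold either. Per 100 CAG repeats the log2 slope was 0.02 ± 0.07 at 6 months (edgeR adjusted p = 0.995, 0 of 374 hairpins called and 8 below 0.05 before adjustment) and 0.05 ± 0.04 at 10 months (0.573, 2.09% of 383 called). Without the 10 libraries low in MI0000562 the slope at 10 months was -0.00084. The slope in males minus that in females was -0.17 ± 0.13 at 6 months (0.978) and 0.09 ± 0.09 at 10 months (0.985). When the ages were combined, the signed Z for mir-126a reached 0.85 in Q50, -0.41 in Q92, 1.29 in Q140 and 0.97 for the repeat length, where 0, 1, 0 and 2 of 366 hairpins were called (0.273% and 0.546% for Q92 and the repeat length). The adjusted p from these edgeR results ran from 0.859 to 0.9996.

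Each line against its own WT mice gave values of like size. Q20 minus WT of its line was -0.05 ± 0.11 at 6 months and 0.02 ± 0.08 at 10 months on the log2 scale. Q50 minus WT of its line was 0.18 ± 0.12 at 6 months and 0.02 ± 0.08 at 10 months, and without the 10 libraries these turned to -0.03 and -0.08. The WT mice of the Q50 line differed from those of the Q20 line by -0.04 ± 0.11 and -0.06 ± 0.08. None of these 6 was past the threshold, with edgeR adjusted p from 0.783 to 0.992, and edgeR called no hairpin in any of them, with 1 to 43 at an unadjusted p under 0.05.

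**Figure D4:**
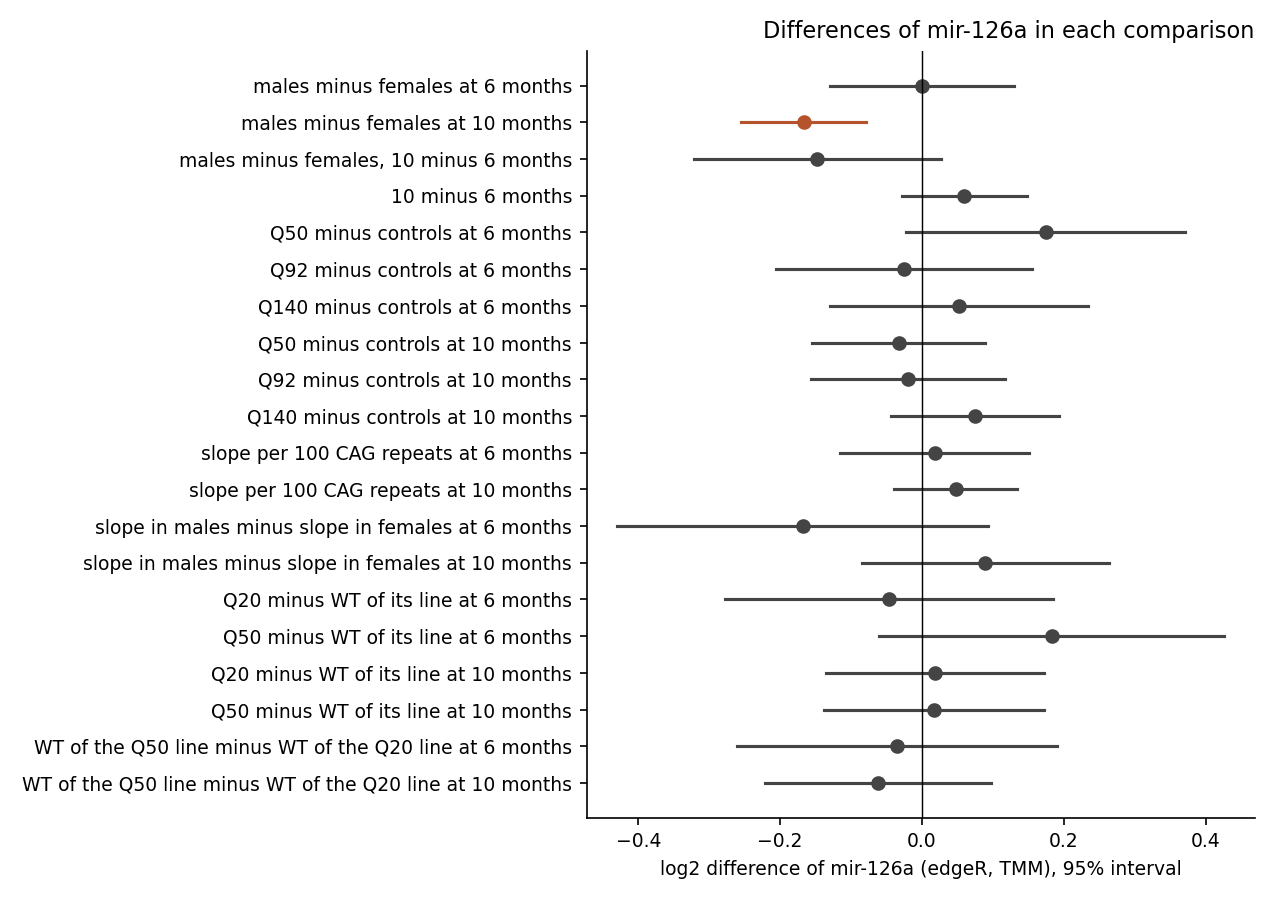
Fitted log2 differences of mir-126a with 95% intervals (horizontal axis) in the 20 comparisons tested with edgeR on TMM-scaled counts (vertical axis). The slopes are per 100 CAG repeats. Only males minus females at 10 months (-0.17, coloured) passed the adjusted threshold, and the intervals of the other 19 include 0.

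Hairpins that varied with mir-126a among mice of 1 group were sought over the 92 libraries used in the tests, as the Pearson correlation of log2 CPM centred on the group means, in 208 hairpins with a mean of at least 10 CPM. All points of 1 library share its total and its lane tag. The 5 highest were MI0000562, MI0000556 (94 nt), MI0000561 (93 nt), MI0000560 (95 nt) and MI0000564 (84 nt), and the median of the 208 was 0.15. Counts of MI0000562, MI0000556 and MI0000560 were fractional in all 96 libraries and those of MI0000561 in 87. Whether these hairpins share reads with each other or with further hairpins was not tested. For MI0000562 no value over all libraries is given, since its values fall in 2 separate sets: it was 0.36 in the 83 libraries of the upper set, and 0.77, not centred, in the 9 of the lower set.
For MI0000556 the correlation was 0.72 (Spearman 0.53), and without the libraries low in MI0000562 it was 0.49. MI0000561 went from 0.65 to 0.40, MI0000560 from 0.64 to 0.31 and MI0000564 from 0.62 to 0.50. Without those libraries the 5 were at places 47, 22, 38, 64 and 19 of the 208.

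At the other end, MI0000559 (94 nt) had -0.48 over the 92 libraries and 0.19 without the low ones, a change of sign. In the 10 low libraries MI0000559 had 1274 to 3227 CPM. MI0000551 (89 nt), the most abundant hairpin with 212788 CPM on average, had -0.35 and -0.43 and stayed lowest or next to lowest, but was at -0.16 on TMM-scaled CPM. Without the 10 libraries, the 3 hairpins most like mir-126a, named after their values were seen, were MI0000145 (96 nt) with 0.73, MI0003537 (69 nt) with 0.68 and MI0000590 (95 nt) with 0.61. They had 0.43, 0.46 and 0.40 over all 92 libraries. In the sex comparison at 10 months 45.2% of the 383 hairpins tested were called with edgeR, and 23.2% were lower in males. There mir-126a, MI0000556 (-0.18 ± 0.06, edgeR adjusted p = 0.00619) and MI0000564 (-0.33 ± 0.04, 3.53e-08) were lower in males. The other 3 of the 5 most alike were not past the threshold with edgeR: MI0000560 had -0.09 ± 0.05 (adjusted p = 0.0915), MI0000561 had 0.13 ± 0.07 (0.13) and MI0000562 had -0.09 ± 0.19 (0.75). Of the 2 least alike, MI0000551 was also lower in males (-0.08 ± 0.03, edgeR adjusted p = 0.00696) and MI0000559 had 0.0045 ± 0.08 (0.968). With calls this common among all hairpins, these are not read as a trait shared with mir-126a.

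**Figure D5:**
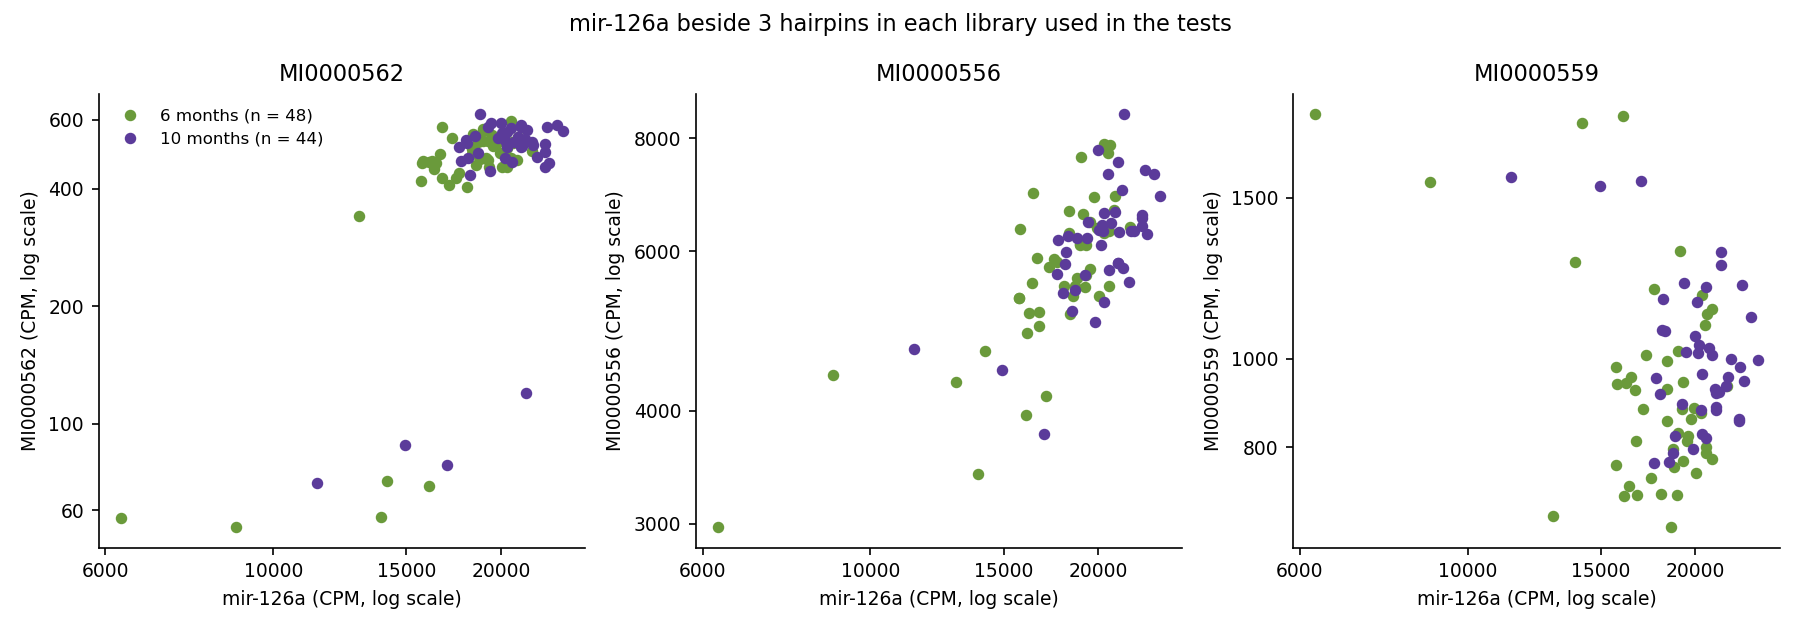
CPM of MI0000562, MI0000556 and MI0000559 (vertical axes, log scale) against that of mir-126a (horizontal axis, log scale) in the 92 libraries used in the tests, coloured by age. In the first panel 9 libraries lie at 54.3 to 120 CPM of MI0000562, apart from the other 83, and most of them are also low in mir-126a.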

How the data were processed

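Small RNA from 96 mouse livers was sequenced as strand-specific single-end reads. The authors called bases with CASAVA 1.8.2 and deposited estimated counts per hairpin and FPKM. The study's methods name STAR for aligning clipped reads to mm10 and HTSeq for counting. They do not say how fractional counts arose, so how the deposited values were made is not known here. Their FPKM served here only to recover hairpin lengths, which were whole (tolerance 0.01) in 1005 of 1018 hairpins above 0. The estimated counts were not all whole, where counts had been assumed, and were rounded for the tests.

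Groups came from the labels. Levels are CPM of the column sums. For the tests, hairpins had to reach 1 CPM in 8 or more libraries. Quasi-likelihood F tests were run on TMM-scaled counts with edgeR 4.0.16 (R 4.3.3), p-values were adjusted over all hairpins tested by the method of Benjamini and Hochberg, and the threshold was 0.05. Within an age, sex, genotype and the lane tag were covariates, and WT counted as 7 repeats. Fits over both ages had no lane tag. The study's batch covariate was taken as the lane tag. Neither the labels nor the study's methods say that this tag marks a lane or that batch. Signed Z values of both ages were combined as their sum over the square root of their number.

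A variance-stabilizing transformation preceded Z.k, and a value under -5 removed the library, which applied to 0 at 6 months and 4 at 10 months (Q92 male replicate 2, Q92 female replicate 1, and male replicate 3 of both WT lines). The study's methods do not give every detail of Z.k. Several forms were tried, and the one kept (filtered hairpins, squared distances) was chosen because it left out the libraries named in an earlier account of these data. Over unfiltered hairpins it left out 1 and 3, which is an alternative here.

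The member, the lists and the rules were chosen with earlier results of these data known. Besides mir-126a the rule named the 5 hairpins most and the 2 least correlated with it and its 2 neighbours on either side in level per length. The lists of endothelial and other cell markers were not run, because no hairpin ID was matched to a name. Alternatives were DESeq2 size factors, column sums with and without the hairpins over 10% of all counts, no filter, the DESeq2 1.42.0 Wald test, all libraries, a Z.k limit of -3, a replicate block, no lane tag, other controls, single lane tags and each library left out. Added after the data were seen were runs without L8, without the libraries under 200 CPM of MI0000562, with Z.k over unfiltered hairpins, and age in each sex. The tests were checked on simulated data. In 144 pairs of libraries of 1 group, none agreed within sampling noise. With 25793 counts or more of mir-126a per library, its counting error was 0.256% to 0.623%.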

Additional observations from a re-analysis of the deposited data

Results flagged for a closer look

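In WT females of the Q20 line at 10 months, replicate 1 had 18782 CPM of mir-126a while the other 3 mice had 21260.1 to 21650.5 CPM. The gap to the nearest mouse was 0.864 of the group's whole range, which marks a sample far from the others. Chance alone marks about 1 in 20 groups, and 24 groups were looked at. This library was not among the 10 that were low in MI0000562, and its Z.k was not under the limit.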

How the results depend on the processing

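The lower level of mir-126a in males at 10 months kept its direction and its call with edgeR or DESeq2 under each change of scaling, filter, tool, library set or covariate, with log2 differences from -0.19 to -0.13 and adjusted p from 1.97e-05 to 0.0193, and in the fits that left out each library (-0.20 to -0.13). It lost the call within single lane tags, at -0.10 in L5, -0.16 in L6 and 0.0934 in L7, where fewer libraries entered, and within L5 and L6 without the libraries low in MI0000562, at -0.10 and -0.11. The edgeR adjusted p of 1.97e-05 came from the fit without the libraries low in MI0000562. These were picked for a hairpin that follows mir-126a, so that p is no added support. The age difference passed on column sums (0.18), on column sums without the hairpins over 10% of all counts (0.21) and in females alone (0.14), and was -0.0047 in males alone. The other scalings, tools and library sets did not bring it past the threshold. No setting run brought a genotype, repeat length, line or interaction result past the threshold, but several values changed sign, among them Q50 against WT of its line at 6 months, which was 0.18.

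The replicate numbers do not pair the samples. Deviations from the group means correlated by -0.01 on average in 240 pairs of libraries with the same number and by 0.01 in 720 other pairs. With the replicate block, the sex difference was 0.0012 at 6 months and -0.17 at 10 months, and no call changed. The sex difference at 6 months was also 0.0012 with DESeq2 size factors and the DESeq2 Wald test, and 0.0873 within L6. Q92 against controls at 6 months was 0.0843 with only this genotype and controls, 0.00019 within L6, 0.10 within L7, 0.0598 without L8 and 0.0055 without the libraries low in MI0000562. Q92 at 10 months was 0.0109 on column sums without the top hairpins, 0.0037 without the lane tag and 0.0067 with only WT as controls. The slope per 100 repeats at 6 months was -0.0125 at a Z.k limit of -3, -0.0123 without the lane tag and -0.0188 with Z.k over unfiltered hairpins, and at 10 months -0.00084 without the low libraries. The WT lines at 6 months differed by 0.0342 at a Z.k limit of -3, 0.0526 with Z.k over unfiltered hairpins and 0.056 without the low libraries, and at 10 months by 0.0744 without them. Q20 against WT of its line was 0.0149 at 6 months without the lane tag. Q20 against WT of its line at 10 months was -0.00531 without the filter and -0.00862 with all libraries. Q50 against WT of its line was -0.0268 at 6 months and -0.0831 at 10 months without the low libraries. The Z of Q50 combined over ages was -0.0872 without the lane tag and -0.42 without the low libraries, and that for Q92 was 0.34 without L8. The correlation of MI0000559 was 0.19 without the low libraries. Without the low libraries, sex at 6 months was -0.0071, age 0.05, sex by age -0.10, Q140 against controls at 6 months 0.04, Q50 against controls at 10 months -0.04, Q92 against controls at 10 months -0.07 and CAG length at 6 months 0.02, none past the threshold. The cause of these changes was not tested.

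Leaving out each library changed the sign in 8 results. The ranges were -0.0593 to 0.0236 for sex, -0.064 to 0.0563 for Q92, -0.0188 to 0.0444 for the slope and -0.0791 to 0.0526 for the WT lines at 6 months. At 10 months they were -0.0912 to 0.0889 for Q50 against WT of its line and -0.141 to 0.039 for the WT lines. The combined Z ran from -0.0025 to 1.22 for Q50 and from -1.07 to 0.31 for Q92. The library WT of the Q50 line male 10 months replicate 4, low in MI0000562, gave the lowest combined Z for both. Without changing sign, sex by age ran from -0.188 to -0.0882 (the latter without WT of the Q50 line female 6 months replicate 3), age from 0.0324 (without Q20 male 10 months replicate 4) to 0.0745 and, at 6 months, Q50 against controls from 0.0756 to 0.211 and Q50 against WT of its line from 0.0842 to 0.226, both lowest without Q92 male 6 months replicate 2. Q140 against controls at 6 months ran from 0.00897 to 0.079. CAG length at 10 months ran from 0.0222 to 0.0573 and CAG length by sex at 10 months from 0.0304 to 0.107, both lowest without WT of the Q50 line male 10 months replicate 4. None of these passed the threshold.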
